A study of Homo sapiens with 12 samples.

Results

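Fibroblasts labelled MRG15 knockout were set against control fibroblasts on day 0, before the OSKM reprogramming factors (OCT4, SOX2, KLF4 and MYC). Both groups were dH1f cells, a fibroblast line made by differentiating H1 human embryonic stem cells. Control cells (NT) are labelled wildtype and carried a non-targeting control sgRNA. Knockout cells (KO) are labelled MRG15 knockout and carried an sgRNA against MRG15. Neither group had received OSKM per the labels, and each held 3 libraries. These 6 libraries are part of a series of 12, whose other 6 came from the same 2 kinds of cell on day 6. Every gene was kept whose mean over the 6 day 0 libraries lay at least 1 above the lowest value of the table, which left 14402 of 60660 identifiers. The table's column headings give all KO libraries the same guide code. The labels do not say whether the KO cells were 1 clone or a mixed population, nor whether replicates were separate cultures. What that guide did elsewhere, and traits of that population of cells, cannot be told apart from effects of targeting MRG15. P-values reflect only the spread among replicate libraries within the 4 groups of the series, days 0 and 6 together, and that spread may be technical.

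MRG15, encoded by MORF4L1, is a chromodomain protein that binds histone H3 methylated at lysine 36, a mark laid down over transcribed gene bodies. It is a subunit of the NuA4/TIP60 histone acetyltransferase and of a SIN3 histone deacetylase complex, and it has been linked to splice site choice and to repair by homologous recombination. Fibroblasts are the source cells of reprogramming: they make collagen matrix, pull on it with actin and myosin fibres, and hold these traits in part through TGF-β signalling and the factors SRF and YAP. Contractile and matrix genes, the rate of division and innate immune genes are among the traits of a fibroblast that are known to change early when OSKM is added.

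Levels are normalised counts estimated from the deposited values, per gene and not per length, so they are compared between libraries and do not rank genes by abundance. Differences are KO minus NT on the deposited log2 scale, the variance-stabilised transform (VST), tested with limma. A gene was called at an adjusted p under 0.05. Of 14402 genes 2709 were called (18.8%), 1109 higher in KO (7.70%) and 1600 lower (11.1%). Counts of list members given below are to be read beside these shares. The 3 KO libraries lay wholly above or below the 3 NT libraries for 4947 genes (34.3%). Most called differences were small: 77.0% were under 0.5 in size, 13 genes were higher and 39 lower by at least 1, and the median difference over all genes was -0.005. The libraries held an estimated 19.76 to 22.03 M reads, and 4.18 to 4.33% of the estimated counts came from the mitochondrial genome. The first principal component of the 6 libraries (47% of the variance) separated KO from NT, and on the second (15.7%) NT replicate 3 lay apart at -16.79 while the other libraries lay between -1.11 and 9.40. Without NT replicate 3, 2282 genes were called, 933 higher and 1349 lower.

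**Figure D1:**
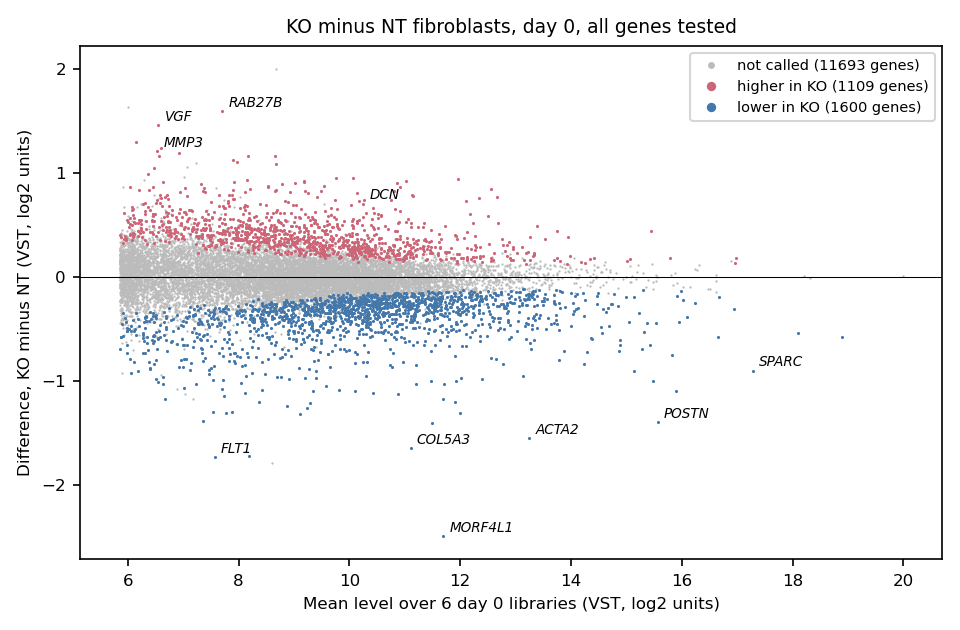
Difference between KO and NT fibroblasts on day 0 (vertical axis, VST, log2 units) against the mean level over the 6 libraries (horizontal axis, VST, log2 units), 1 point per gene tested. The 1109 genes called higher are red, the 1600 called lower are blue, and MORF4L1 is the lowest point at -2.49.

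The cells had fibroblast transcripts in both groups. Of the fibroblast markers, COL1A1 stood at 595522, 555700 and 629931 in NT and 397132, 393725 and 397395 in KO, LUM, the matrix proteoglycan lumican, at 4509, 4453 and 4338 in NT and 4743, 5433 and 4672 in KO, and the mesenchymal transcription factor PRRX1 at 4655, 4154 and 4338 in NT and 4276, 4307 and 4190 in KO. Markers of other cell types differed in level. Of the lists, 6 of 22 epithelial, 9 of 16 endothelial and blood, 4 of 18 neural, 4 of 12 muscle and 10 of 16 cartilage, bone and fat markers were high enough to be tested, and some were abundant in both groups. The keratin KRT8 lay between 4695 and 4829 in NT and between 5124 and 5200 in KO, the desmosomal DSP between 7959 and 8872 in NT and between 5821 and 5979 in KO, and the intermediate filament NES between 1605 and 1742 in NT and between 1609 and 1649 in KO. The endothelial receptor TEK lay between 902 and 974 in NT and between 870 and 939 in KO, and the blood factor RUNX1 between 1355 and 1624 in NT and between 1396 and 1472 in KO. KRT18 was abundant too, between 5535 and 6419 in NT and between 4260 and 4374 in KO. Further markers lay at intermediate levels, among them the muscle marker DES (671 to 710 in NT, 436 to 530 in KO). SOX9, from the cartilage, bone and fat list, lay between 428 and 439 in NT and between 428 and 510 in KO. Some others were at or near 0. The epithelial cadherin CDH1 lay between 5.30 and 15.7 in NT and between 2.37 and 20.5 in KO, SOX10, a neural crest factor, was at most 2.80 in any library, and the muscle factors MYOD1 and MYF5 were at most 1.14. Of 17 tested fibroblast surface and identity genes 2 were higher (0 without KO replicate 1, KO replicate 2 or NT replicate 1) and 6 lower (median -0.16), among the lower the growth factor receptor PDGFRB (-0.42, adjusted p = 1.56e-04), the surface protease FAP (-0.35, adjusted p = 0.00366) and the cadherin CDH11 (-0.35, adjusted p = 5.76e-04). PDGFRA, the receptor used to sort fibroblasts, was at -0.10 (adjusted p = 0.355). Throughout, fewer cells of a kind and less RNA per cell cannot be told apart in these bulk libraries.

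MORF4L1 itself was the gene with the lowest difference. Its transcript (ENSG00000185787.15, GRCh38 chromosome 15, 78810487 to 78898133, plus strand) was counted at 7682, 7773 and 7863 in NT and 1292, 1301 and 1421 in KO. The groups lay far apart, and KO libraries held 82.8% less (difference -2.49, SE 0.05, adjusted p = 2.89e-13). A sequence edit need not remove a transcript, so the remaining level says nothing about how much protein was left. MORF4L1P1, a processed pseudogene on chromosome 1 that can share reads with MORF4L1, was counted at 486.1, 462.8 and 471.1 in NT and 89.83, 125.2 and 110 in KO (difference -1.72, SE 0.10, adjusted p = 5.79e-08), and its value is uncertain for that reason. MORF4L2, the paralog that encodes MRGX, overlapped between the groups at 6274, 6810 and 6203 in NT and 5888, 6433 and 6292 in KO (difference -0.05, SE 0.05, adjusted p = 0.54). Of the reprogramming factors, KLF4 stood at 367, 362 and 357.4 in NT and 355.6, 340.3 and 352 in KO (difference -0.05, SE 0.04, adjusted p = 0.534) and MYC at 2002, 2101 and 2118 in NT and 1958, 1798 and 2018 in KO (difference -0.11, SE 0.05, adjusted p = 0.142). POU5F1, which encodes OCT4, reached at most 6.74 in any library and SOX2 at most 1.11, too low to be tested.

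Beyond MORF4L1 and its pseudogene, the 10 genes with the lowest differences include genes of matrix, contractile and membrane proteins and 2 of nuclear proteins. FLT1, a receptor for vascular endothelial growth factors that also has a secreted form, was counted at 270.8, 287.4 and 316.6 in NT and 53.75, 75.15 and 38.57 in KO, 5.22-fold lower in KO (difference -1.73, SE 0.13, adjusted p = 8.20e-07). COL5A3, a chain of collagen V, was counted at 3859, 3967 and 3681 in NT and 1270, 1131 and 1168 in KO, 3.22-fold lower (difference -1.64, SE 0.05, adjusted p = 8.13e-11). ACTA2, the smooth muscle actin of contractile fibroblasts, was counted at 15859, 17842 and 15993 in NT and 5704, 5738 and 5414 in KO, 2.95-fold lower (difference -1.55, SE 0.05, adjusted p = 8.13e-11). In each of these genes the highest KO library lay below the lowest NT library. CEMIP, a hyaluronan-degrading protein encoded on chromosome 15 as MORF4L1 is, was counted at 4969, 3896 and 5070 in NT and 1637, 1621 and 1864 in KO (difference -1.41, SE 0.10, adjusted p = 4.22e-07). POSTN, the matricellular protein periostin, was counted at 72906, 80725 and 82113 in NT and 29622, 28666 and 30881 in KO, 2.64-fold lower (difference -1.40, SE 0.05, adjusted p = 1.07e-10). HAPLN1, which links hyaluronan to proteoglycans, was counted at 789.9, 846.9 and 797.7 in NT and 274.6, 240.7 and 375 in KO (difference -1.32, SE 0.16, adjusted p = 4.36e-05). The groups were apart in these too, with KO replicate 3 the highest KO library for HAPLN1. Among regulators, the forkhead factor FOXS1 was 4.08-fold lower (210 ± 14.7 in NT and 51.4 ± 5.09 in KO, mean ± SD, n = 3) and ANKRD1, a nuclear protein and a standard YAP target, 2.52-fold lower (6369 ± 731 in NT and 2523 ± 101 in KO). The glycosyltransferase B3GALT2 (291 ± 17.8 in NT and 87.5 ± 8.64 in KO) and the membrane protein PLPPR4 (239 ± 35.7 in NT and 68.3 ± 8.51 in KO) complete the 10, with adjusted p of 4.31e-07 and 2.56e-06.

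The 12 genes with the highest differences include secretory, neuronal and patterning genes. RAB27B, a GTPase that docks secretory vesicles, was counted at 61.86, 77.16 and 68.75 in NT and 296.9, 298.8 and 321.7 in KO, 4.42-fold higher in KO (difference 1.59, SE 0.10, adjusted p = 1.47e-07). VGF, a neuropeptide precursor, was counted at 12.97, 14.29 and 13.38 in NT and 130.3, 99.59 and 83.24 in KO, 7.71-fold higher (difference 1.46, SE 0.12, adjusted p = 1.89e-06). STMN2, a neuronal regulator of microtubules encoded on chromosome 8, was counted at 25.04, 24.31 and 8.84 in NT and 100.1, 82.37 and 107 in KO, with NT replicate 3 the lowest of all (difference 1.24, SE 0.12, adjusted p = 4.51e-06). All 3 genes had fewer than 100 counts in every NT library, where the VST difference understates the fold of the counts. MMP3, the protease stromelysin, was counted at 17.42, 18.61 and 13.94 in NT and 80.92, 89.92 and 94.81 in KO, 5.32-fold higher (difference 1.21, SE 0.12, adjusted p = 1.01e-05). Among transcription factors, ATOH8 rose 2.55-fold (215 ± 23 in NT and 547 ± 58.1 in KO), ETV1 2.69-fold (139 ± 25.9 in NT and 375 ± 51.4 in KO) and OSR1, an early mesoderm factor, 2.63-fold (119 ± 25 in NT and 314 ± 26.4 in KO). The ligand WNT7B rose 2.36-fold (228 ± 42.6 in NT and 539 ± 34.9 in KO) and NOS1, neuronal nitric oxide synthase, 2.69-fold (111 ± 26.1 in NT and 297 ± 31.6 in KO, adjusted p = 0.00212). NOS1 was not called on scales that remove the floor with a pseudocount of 1. The kinase CAMK1G (1.16), LRATD1 (1.19) and the amino acid transporter SLC7A8 (1.05) complete the list, with adjusted p of 5.67e-05, 2.14e-05 and 2.28e-05. None of the 24 genes with the highest and lowest differences lost its call when any 1 of the 6 libraries was left out. In the same fit the KO effect on day 6 differed from that on day 0 for 2820 of all genes (19.6%), and for 18 of these 24. The 24 were named for their size on day 0, a value that enters this comparison. Their share therefore cannot be set against that of all genes.

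**Figure D2:**
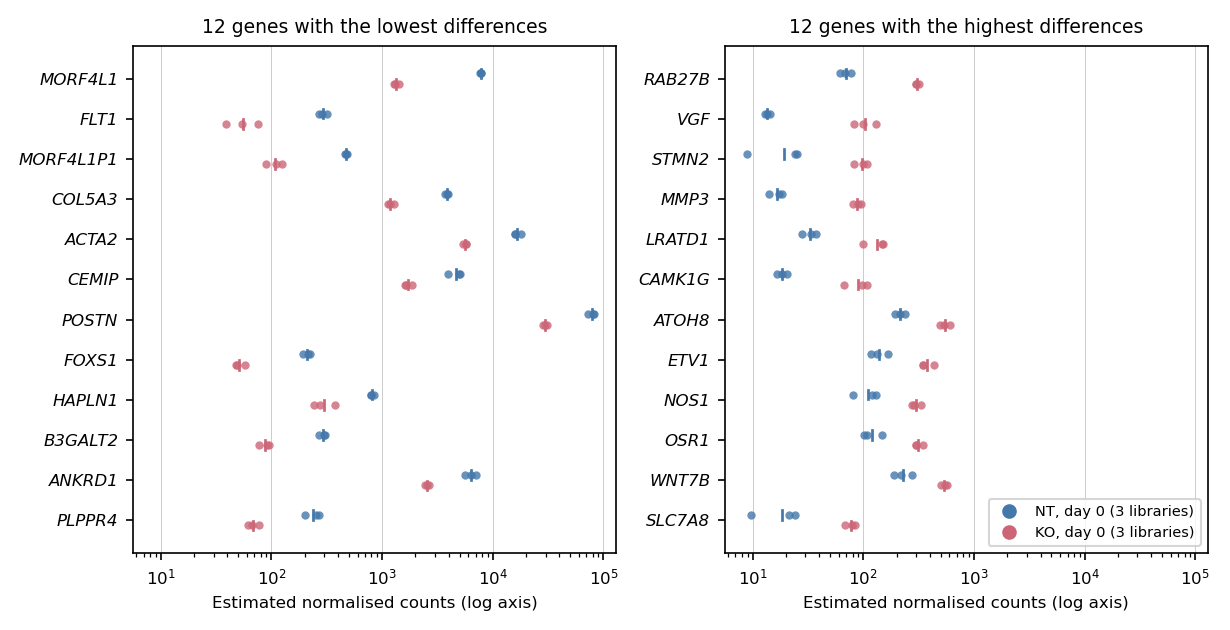
Estimated normalised counts (horizontal log axis) of the 12 genes with the lowest and the 12 with the highest differences, in the 3 NT (blue) and 3 KO (red) day 0 libraries, with a tick at each mean. Points of the 2 groups do not overlap for any of the 24 genes, as the rule that named them required.

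Genes of the contractile machinery were lower in KO fibroblasts as a group. Of 27 tested members 22 were lower (81.5%, against 11.1% of all genes) and 0 higher, with a median of -0.38. The mean level of the list was 13.41 to 13.44 VST units in NT and 12.91 to 12.94 in KO, so the libraries did not overlap. The largest differences were in smooth muscle forms, though not every such form was called. MYH11, a smooth muscle myosin heavy chain, was called only when KO replicate 2 was left out (adjusted p = 0.0308). ACTG2, the enteric smooth muscle actin, was counted at 2470, 3011 and 2721 in NT and 1265, 1191 and 1193 in KO (difference -1.13, SE 0.08, adjusted p = 3.35e-07). LMOD1, which nucleates actin filaments in smooth muscle, was counted at 887.9, 915.7 and 879.1 in NT and 364.3, 399.3 and 401.2 in KO (difference -1.10, SE 0.08, adjusted p = 7.63e-07). Both fell in every KO library. TAGLN, an actin-binding protein of contractile cells, was counted at 48529, 52427 and 47810 in NT and 26604, 26683 and 25940 in KO, 1.88-fold lower (difference -0.91, SE 0.05, adjusted p = 5.79e-08). CNN1, calponin, was counted at 3021, 3363 and 2965 in NT and 1761, 1689 and 1647 in KO (difference -0.85, SE 0.06, adjusted p = 5.98e-07). MYLK, the kinase that switches on smooth muscle myosin, was counted at 4567, 5356 and 5011 in NT and 2798, 2793 and 3136 in KO (difference -0.76, SE 0.14, adjusted p = 0.00147). Tropomyosins TPM1 (chromosome 15, -0.65) and TPM2 (-0.59), caldesmon CALD1 (-0.61), the cross-linker ACTN1 (-0.59) and the focal adhesion protein VCL (-0.36) fell by less (adjusted p at most 5.24e-05). The general cytoskeletal forms moved little: ACTB fell by 0.19 (adjusted p = 0.00357), ACTG1 stood at 0.02 (adjusted p = 0.729) and the non-muscle myosin MYH9 at -0.09 (adjusted p = 0.25). Actin genes share long coding stretches, and reads may have been divided between them. Of the 4 tested markers of skeletal and heart muscle out of 12 listed, 3 were lower, among them TNNT2 (-0.65) and DES (-0.46). The summed level of that marker list was 850 to 941 in NT and 537 to 645 in KO, MYOD1 and MYF5 were at or near 0, and the part of such cells in the contractile result was not tested.

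Promoters of contractile genes are known for CArG boxes, the sequence bound by SRF, spelled here as CC, 6 bases of A or T, and GG. In RefSeq promoter windows of GRCh38.p14, from 250 bases before to 50 after each start, 47.8% of the 23 contractile genes with a window held 1, against 1.63% of the 10944 tested genes with a window and 1.6% of all 27305 in the table. The following stretches show where the boxes, in capitals, lie in 4 members called lower.
ACTG2 (chr2:73892880-73892962, plus strand): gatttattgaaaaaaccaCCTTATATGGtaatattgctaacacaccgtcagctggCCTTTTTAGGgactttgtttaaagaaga
MYLK (chr3:123620615-123620660, minus strand): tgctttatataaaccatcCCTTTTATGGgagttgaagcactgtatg
ACTN1 (chr14:68977710-68977755, minus strand): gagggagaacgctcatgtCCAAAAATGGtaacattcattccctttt
FHL1 (chrX:136196903-136196948, plus strand): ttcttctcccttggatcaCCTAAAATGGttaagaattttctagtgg
ACTG2 has its boxes at -110 and -73 from the start, MYLK at -94, ACTN1 at -171 and FHL1 at -126. FHL1, a LIM domain protein, was counted at 9553, 9066 and 9565 in NT and 6297, 6272 and 6193 in KO (difference -0.58, SE 0.05, adjusted p = 3.73e-06). The 11 contractile genes with a box had a median difference of -0.25 and 8 were lower. The 12 without one of this spelling in the window, ACTA2 and CNN1 among them, had a median of -0.52 and 11 were lower. Boxes of other spellings were not searched, so these medians cannot tell whether genes bound by SRF differed more. Over all genes with a window, 3.36% of those called lower, 1.67% of those called higher and 1.37% of those not called held a box.

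Of 18 tested SRF cofactors and YAP targets 7 were lower and 1 higher (0 without any 1 of the KO replicates or NT replicate 3). The targets ANKRD1 (-1.31) and CCN2, connective tissue growth factor, were lower, the latter counted at 39397, 37352 and 37776 in NT and 22570, 23471 and 23784 in KO (difference -0.71, SE 0.05, adjusted p = 1.25e-07). CCN1, a second matricellular YAP target, fell by 0.29 (adjusted p = 0.00163). MYOCD, the smooth muscle cofactor of SRF, was counted at 932, 1073 and 1131 in NT and 493.6, 447.2 and 482.4 in KO (difference -1.05, SE 0.09, adjusted p = 2.43e-06), and the YAP kinase LATS2 fell by 0.42 (adjusted p = 0.00133). SRF itself was called lower, but not without KO replicate 2 (adjusted p = 0.0595) or NT replicate 3 (adjusted p = 0.056). YAP1 (0.00, adjusted p = 0.98), its partner TEAD1 (-0.00, 0.999) and the surface kinase AXL (-0.00, 0.988), a further target, did not pass the test. Of other TEAD genes, TEAD4 was called lower, but not without KO replicate 2 (adjusted p = 0.0518), and TEAD2 (0.24) was the 1 called higher.

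In the TGF-β pathway 10 of 24 tested genes were lower and 4 higher (median -0.10). Ligands were among the lower: TGFB2 was counted at 4432, 4718 and 5022 in NT and 2319, 2307 and 2233 in KO, 2.07-fold lower (difference -1.03, SE 0.06, adjusted p = 5.15e-08). TGFB1 was counted at 4539, 4618 and 4071 in NT and 2813, 2616 and 2835 in KO (difference -0.67, SE 0.06, adjusted p = 2.12e-06), and TGFB3 was at -0.09 (adjusted p = 0.548). LTBP2, of the family of latent TGF-β binding proteins (-0.31), and LRRC32, a surface anchor of latent TGF-β (-0.31), fell. Of the same family LTBP1 was not called (-0.21) and LTBP4 was higher (0.48). Of the receptors, TGFBR1 was at -0.11 (adjusted p = 0.598) and TGFBR2 rose by 0.23 (adjusted p = 0.00173). Target genes went both ways. COMP, a cartilage matrix protein also made by activated fibroblasts, was 2.71-fold lower (difference -1.08, SE 0.11, adjusted p = 6.58e-06). SMAD6, an inhibitor of BMP signalling encoded on chromosome 15, was counted at 139, 147.3 and 105.8 in NT and 237, 277.8 and 245.2 in KO and rose (difference 0.75, SE 0.11, adjusted p = 2.52e-04). TGFBI, a secreted target, rose by 0.19 (adjusted p = 0.00409). The signal carriers SMAD2 (0.02), SMAD3 (0.07) and SMAD4 (0.18) did not pass, with adjusted p of 0.905, 0.546 and 0.244.

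Collagens were lower in KO cells. Of 20 tested collagen genes 13 were lower (65.0%) and 0 higher, with a median of -0.48, and the list mean was 14.22 to 14.25 in NT and 13.73 to 13.81 in KO. The chains of collagen I fell together, COL1A1 from the levels given above by 0.58 (SE 0.05, adjusted p = 3.38e-06) and COL1A2 by 0.54 (SE 0.04, adjusted p = 1.89e-07). COL3A1 was counted at 126720, 124956 and 127343 in NT and 84474, 83576 and 84914 in KO (difference -0.58, SE 0.03, adjusted p = 2.20e-08). The basement membrane chain COL4A1 was counted at 85544, 90714 and 89409 in NT and 41997, 39471 and 42553 in KO, 2.14-fold lower (difference -1.10, SE 0.05, adjusted p = 2.77e-09), and its partner COL4A2, which is encoded head to head with it, fell by 0.75 (adjusted p = 6.38e-07). Among the collagen V chains COL5A3 fell by 1.64, COL5A2 by 0.53 and COL5A1 by 0.38 (adjusted p at most 2.01e-04). The bead-forming chains COL6A1 (-0.08, adjusted p = 0.234) and COL6A2 (-0.06, adjusted p = 0.319) did not pass the test.

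Enzymes that fold, cut and cross-link collagen were lower as well: 13 of 18 fell and 1 rose (median -0.27). LOX, which starts cross-links, was counted at 26733, 27928 and 29976 in NT and 20342, 19058 and 20955 in KO (difference -0.49, SE 0.05, adjusted p = 6.76e-06). BMP1, the protease that removes the carboxyl propeptide, fell by 0.51, LOXL2 by 0.44 and LOXL1, on chromosome 15, by 0.44 (adjusted p at most 1.18e-05). The lysyl hydroxylase PLOD1 (-0.40), the collagen chaperone SERPINH1 (-0.26) and the prolyl hydroxylase subunit P4HA1 (-0.25) fell too, with adjusted p of 2.86e-05, 3.75e-04 and 0.00268. The 1 that rose was PCOLCE, an enhancer of BMP1 (difference 0.29, SE 0.05, adjusted p = 0.00104).

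Elastic fibre and matricellular genes were lower in 12 of 22 cases and higher in 2 (median -0.30). SPARC, a collagen-binding protein, was counted at 204828, 224604 and 221530 in NT and 118656, 113546 and 116112 in KO (difference -0.90, SE 0.04, adjusted p = 7.15e-09). ELN, elastin, was counted at 778.3, 797 and 770.1 in NT and 433, 352.5 and 413.1 in KO (difference -0.88, SE 0.10, adjusted p = 3.04e-05). The fibrillin FBN2 fell by 0.84, the microfibril protein MFAP5 by 0.82 and the angiogenesis inhibitor THBS2 by 0.84 (adjusted p at most 8.29e-05). THBS1 and FBN1 lie on chromosome 15 and fell by 1.0 and 0.65, beyond the chromosome's median difference of -0.164. FN1, fibronectin (0.01, adjusted p = 0.954), and TNC, the anti-adhesive tenascin C (-0.16, adjusted p = 0.267), overlapped between the groups. CCN5, a growth-restraining relative of CCN2, rose (156.5, 109.6 and 89.36 in NT and 191.6, 224.5 and 222.6 in KO; difference 0.66, SE 0.14, adjusted p = 0.0045), and so did FBLN1, fibulin 1 (difference 0.60, SE 0.08, adjusted p = 1.17e-04).

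Proteoglycan and hyaluronan genes did not share 1 direction. Of 19 tested 10 were lower and 4 higher (median -0.21). DCN, decorin, which binds collagen and TGF-β, was counted at 966.4, 998 and 742.7 in NT and 1410, 1469 and 1610 in KO and rose (difference 0.70, SE 0.09, adjusted p = 8.20e-05). HAS2, the hyaluronan synthase of fibroblasts, was counted at 954.1, 894 and 825.7 in NT and 1462, 1547 and 1563 in KO and rose too (difference 0.74, SE 0.07, adjusted p = 2.75e-06). The groups were apart in both. SDC1 rose (difference 0.56, SE 0.11, adjusted p = 0.00357) while SDC2, another transmembrane proteoglycan, fell (6963, 8055 and 7440 in NT and 3420, 3881 and 3966 in KO; difference -0.98, SE 0.07, adjusted p = 2.80e-07). VCAN, the large proteoglycan versican, was counted at 11948, 12352 and 13465 in NT and 7566, 8010 and 7709 in KO (difference -0.69, SE 0.05, adjusted p = 7.62e-07), and the cell surface glypican GPC1 fell by 0.51 (adjusted p = 1.45e-04). HAPLN3 and ACAN, a link protein and aggrecan, lie on chromosome 15 about 10 Mb beyond MORF4L1 and fell by 1.09 and 0.71. LUM was at 0.15 (adjusted p = 0.118).

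Among 20 tested proteases and inhibitors of the matrix 3 rose and 7 fell. Metalloproteinases went both ways. Those that rose were MMP3 (above), MMP9 (difference 0.62, SE 0.14, adjusted p = 0.00613) and MMP2, a gelatinase, counted at 39770, 38044 and 36616 in NT and 51518, 52545 and 51848 in KO (difference 0.45, SE 0.05, adjusted p = 1.28e-05). MMP1, the interstitial collagenase, was counted at 2580, 3191 and 2986 in NT and 2247, 2173 and 2374 in KO and fell (difference -0.35, SE 0.11, adjusted p = 0.0391), and it lost its call without KO replicate 1 (adjusted p = 0.0985), KO replicate 2 (adjusted p = 0.116), KO replicate 3 (adjusted p = 0.0651), NT replicate 2 (adjusted p = 0.144) or NT replicate 3 (adjusted p = 0.101). Among the inhibitors TIMP1 was counted at 8248, 9183 and 8320 in NT and 6344, 6289 and 6306 in KO (difference -0.44, SE 0.05, adjusted p = 1.81e-05) and TIMP3 fell by 0.21 (adjusted p = 0.00886), while TIMP2 was at 0.10 (adjusted p = 0.138). The membrane protease MMP14, which activates MMP2, was at -0.03 (adjusted p = 0.809). Integrins, the receptors that hold matrix, were lower in 8 of 15 cases (5 after quantile normalisation) and higher in 1. Lower were ITGA8 (difference -0.99, SE 0.15, adjusted p = 3.33e-04), the collagen receptors ITGA1 (-0.71, adjusted p = 2.05e-06) and ITGA11 (chromosome 15, -0.70), and ITGAV (difference -0.60, SE 0.06, adjusted p = 1.58e-05), which activates latent TGF-β. ITGA2, also a collagen receptor, was the 1 that rose (447.2, 494 and 563 in NT and 728.1, 736.8 and 767.1 in KO; difference 0.53, SE 0.08, adjusted p = 4.49e-04).

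**Figure D3:**
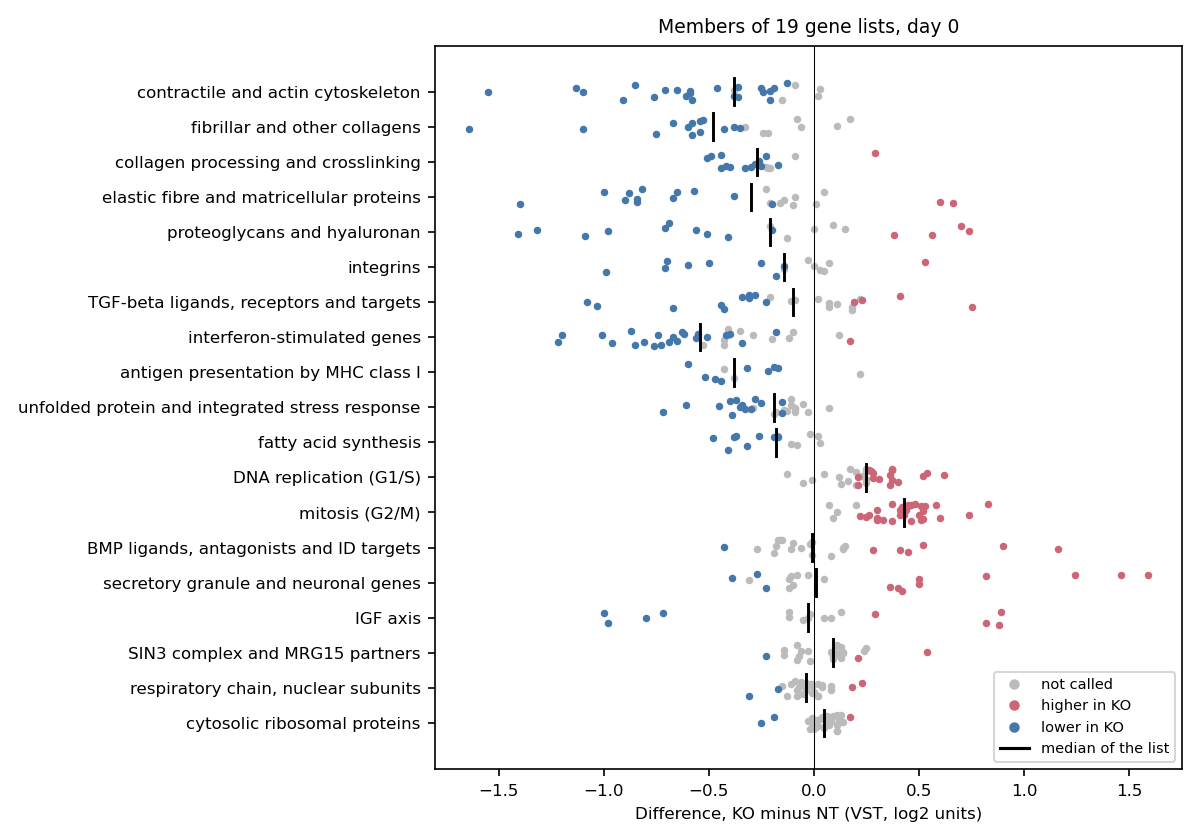
Difference between KO and NT on day 0 (horizontal axis, VST, log2 units) of each tested member of the gene lists named on the vertical axis, with a black bar at the list's median. Contractile, collagen and interferon lists lie to the left of 0 (medians -0.38, -0.48 and -0.54), replication and mitosis lists to the right (0.25 and 0.43), and ribosomal protein and respiratory chain genes lie close to 0.

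Genes of cell division were higher in KO fibroblasts. Of 33 tested mitosis genes 29 were higher (87.9%, against 7.70% of all genes) and 0 lower, and all 33 differences were above 0 (median 0.43). The list mean was 9.27 to 9.31 in NT and 9.67 to 9.71 in KO. HMMR, a spindle protein, was counted at 186.2, 227.2 and 353 in NT and 496.8, 454.8 and 493.3 in KO, 1.89-fold higher (difference 0.83, SE 0.14, adjusted p = 8.79e-04). CENPF, a kinetochore protein, was counted at 1704, 1106 and 1106 in NT and 1974, 2450 and 2107 in KO (difference 0.74, SE 0.15, adjusted p = 0.00365). DLGAP5, which stabilises spindle microtubules, was counted at 425.6, 431.9 and 404.2 in NT and 701.1, 641.9 and 654.3 in KO (difference 0.60, SE 0.07, adjusted p = 5.83e-05). CDK1, the kinase that drives mitosis, was counted at 389.6, 387.3 and 392 in NT and 585.3, 636.2 and 606.2 in KO, 1.56-fold higher (difference 0.58, SE 0.06, adjusted p = 2.51e-05). Every KO library lay above every NT library for these 4. The proliferation marker MKI67 rose by 0.52 (adjusted p = 7.59e-05), topoisomerase TOP2A by 0.52 (1.03e-05) and the mitotic transcription factor FOXM1 by 0.41 (6.02e-04). Not called were CENPA (0.20) and 3 genes of chromosome 15, CCNB2 (0.07), KIF23 (0.11) and PRC1 (0.09). Off that chromosome 27 of 28 were higher.

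Promoters of mitosis genes are known for the CHR element, searched here as TTTGAA on both strands. It lay in the window of 74.1% of the 27 mitosis genes that had one, against 13.7% of tested genes and 18.2% of all genes in the table. Matches, in capitals, are shown for 4 members that rose.
HMMR (chr5:163460586-163460631, plus strand): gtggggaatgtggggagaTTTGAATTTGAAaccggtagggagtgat
DLGAP5 (chr14:55191671-55191741, minus strand): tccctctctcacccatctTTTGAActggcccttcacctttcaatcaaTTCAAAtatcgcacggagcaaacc
CDK1 (chr10:60778391-60778477, plus strand): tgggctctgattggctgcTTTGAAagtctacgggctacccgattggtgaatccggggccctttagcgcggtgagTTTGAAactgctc
KIF11 (chr10:92593084-92593125, plus strand): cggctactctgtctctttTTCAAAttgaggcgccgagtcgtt
In HMMR the 2 matches adjoin, at -28 and -22 from the start. The CDK1 window also holds ATTGG, the reverse of the CCAAT box. KIF11, the spindle motor, was counted at 622.2, 617.4 and 526.6 in NT and 881.4, 902.8 and 839.3 in KO (difference 0.53, SE 0.08, adjusted p = 3.26e-04). The 20 mitosis genes with a match had a median difference of 0.44 and the 7 without one 0.45, so this match did not separate them. Other spellings of the element were not searched. Over all genes with a window the element was in 20.4% of those called higher, 13.2% of those called lower and 13.1% of those not called.

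Genes of DNA replication rose less. Of 32 tested 17 were higher and 0 lower (median 0.25). That count was 10 without KO replicate 1, 10 without KO replicate 2 and 9 without NT replicate 3. RRM2, which makes deoxyribonucleotides, was counted at 881.7, 1016 and 981.4 in NT and 1376, 1822 and 1340 in KO (difference 0.62, SE 0.10, adjusted p = 5.23e-04), and UHRF1, which recruits the maintenance DNA methyltransferase, at 908.7, 866.5 and 872.9 in NT and 1207, 1364 and 1298 in KO (difference 0.52, SE 0.06, adjusted p = 1.80e-05). The helicase subunit MCM7 rose by 0.37 (adjusted p = 4.95e-05) and MCM2 by 0.28 (adjusted p = 0.00514). The G1 cyclin CCNE1 was at 0.12 (adjusted p = 0.322). Homologous recombination and Fanconi genes, a repair role in which MRG15 partners with PALB2, were mostly not called: 5 of 25 were higher, 3 without KO replicate 2, KO replicate 3 or NT replicate 3, and 0 lower. FANCA rose by 0.51 (adjusted p = 0.00686) and XRCC2 by 0.41 (adjusted p = 0.0045). PALB2 was at -0.02 (adjusted p = 0.948) and BRCA1 at -0.13 (0.712). Replication-dependent histones, whose transcripts mostly lack poly(A) tails and are poorly captured in mRNA libraries, had 0 higher and 0 lower of 11.

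Inhibitors of division went in both directions. CDKN1A, which encodes p21, was counted at 1096, 1224 and 1114 in NT and 805, 749.7 and 778.2 in KO and fell (difference -0.53, SE 0.07, adjusted p = 9.81e-05). CDKN2B, p15, which TGF-β induces in many cells, was counted at 1424, 1593 and 1639 in NT and 877.9, 815.5 and 876.9 in KO and fell (difference -0.82, SE 0.09, adjusted p = 1.78e-05). CDKN2A, the neighbouring locus of p16 and ARF and a known barrier to reprogramming, was counted at 1867, 1955 and 1747 in NT and 1331, 1424 and 1483 in KO (difference -0.38, SE 0.07, adjusted p = 0.00175). The groups were apart in all 3. Other inhibitors rose instead, CDKN1C, p57 (250, 208.6 and 269.1 in NT and 349.2, 407.9 and 403 in KO; difference 0.58, SE 0.10, adjusted p = 0.00103), and CDKN2C, p18 (difference 0.57, SE 0.09, adjusted p = 3.62e-04). The atypical E2F7 (difference 0.56, SE 0.07, adjusted p = 5.69e-05) and the pocket protein RBL1 (difference 0.43, SE 0.10, adjusted p = 0.00588) rose, and RB1 was at -0.10 (adjusted p = 0.353).

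Interferon-stimulated genes fell in KO cells, and here the NT libraries differed among themselves. Of 34 tested members 22 were lower and 1 higher (median -0.54). The list mean was 8.56, 8.21 and 8.62 in the NT libraries and 7.91, 7.84 and 8.03 in the KO libraries, so NT replicate 2 lay below its group but above every KO library. Without NT replicate 2 the counts were 25 lower and 1 higher. MX1, an antiviral GTPase, was counted at 563, 253.6 and 598 in NT and 179, 117.4 and 205 in KO (difference -1.20, SE 0.22, adjusted p = 0.00152). IFI6, an interferon-induced membrane protein, was counted at 1102, 746.6 and 872.9 in NT and 368.2, 295.9 and 405.7 in KO, 2.54-fold lower (difference -1.22, SE 0.13, adjusted p = 1.66e-05). OAS1, an enzyme that senses double-stranded RNA, was counted at 116.2, 57.08 and 98.08 in NT and 25.76, 31.67 and 19.82 in KO (difference -0.96, SE 0.15, adjusted p = 4.04e-04). IFIT1, which binds viral RNA, was counted at 367.5, 192.1 and 429.1 in NT and 166.4, 121.1 and 171.8 in KO (difference -0.85, SE 0.21, adjusted p = 0.0103). The RNA sensors RIGI (difference -0.76, SE 0.10, adjusted p = 1.45e-04) and IFIH1 (difference -0.69, SE 0.13, adjusted p = 0.00188) fell, and so did the transcription factors IRF7 (-0.73, adjusted p = 7.79e-05) and IRF9 (-0.63, 0.0023), but STAT2 was at 0.12 (0.2). The 1 called higher was IFITM2 (difference 0.17, SE 0.05, adjusted p = 0.026), a member of a gene cluster of near-identical copies whose reads may be divided. It lost its call without KO replicate 1 (adjusted p = 0.0828), KO replicate 2 (adjusted p = 0.111), NT replicate 1 (adjusted p = 0.0799) or NT replicate 3 (adjusted p = 0.0661).

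The ISRE, the element bound by interferon regulatory factors, was searched on both strands as GAAA, any 2 bases and GAAA. It lay in the windows of 69.2% of the 26 interferon-stimulated genes with one, against 3.97% of tested genes and 4.38% of all genes. Stretches with matches in capitals are shown for 4 members that fell.
IFI6 (chr1:27672258-27672366, minus strand): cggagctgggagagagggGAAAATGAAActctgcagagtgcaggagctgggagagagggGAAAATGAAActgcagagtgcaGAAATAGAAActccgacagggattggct
MX1 (chr21:41431836-41431881, plus strand): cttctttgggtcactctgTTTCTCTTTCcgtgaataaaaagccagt
IFI44L (chr1:78620357-78620402, plus strand): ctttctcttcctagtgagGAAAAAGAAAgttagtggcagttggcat
IFIT1 (chr10:89392489-89392547, plus strand): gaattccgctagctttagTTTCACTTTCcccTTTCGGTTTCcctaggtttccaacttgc
IFI6 has 3 matches between -156 and -93, 2 of them within a repeated stretch. IFI44L, counted at 235.1, 115.7 and 243.4 in NT and 74.24, 70.36 and 103.7 in KO (difference -0.87, SE 0.18, adjusted p = 0.0034), has 1 at -73. The 18 genes with a match had a median of -0.56 with 13 lower and 0 higher, and the 8 without one -0.71 with 6 lower. Elements of other spelling or spacing were not searched, so the 8 may hold some.

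Antigen presentation by MHC class I was lower in 8 of 11 tested genes (median -0.38, 5 lower after quantile normalisation). TAP1, the peptide transporter, was counted at 582, 693.2 and 670.1 in NT and 368.9, 441.8 and 418.5 in KO (difference -0.60, SE 0.08, adjusted p = 8.24e-05). HLA-B fell by 0.52 (adjusted p = 2.47e-04) and HLA-C by 0.22 (adjusted p = 0.00964). HLA genes are highly similar and polymorphic, and their counts depend on how reads were assigned. B2M, the shared light chain, lies on chromosome 15 and fell by 0.47 (adjusted p = 2.21e-05). Inflammatory genes divided: of 20 tested 7 were lower and 3 higher, the latter 1 without NT replicate 1. The chemokine CCL2 was counted at 1473, 1398 and 1305 in NT and 749.1, 818.9 and 869.7 in KO (difference -0.74, SE 0.09, adjusted p = 3.19e-05), the adhesion molecule ICAM1 at 1893, 1782 and 1842 in NT and 1265, 1208 and 1357 in KO (difference -0.51, SE 0.07, adjusted p = 1.45e-04), and the NF-κB subunits RELB (-0.46), NFKB2 (-0.37) and NFKB1 (-0.32) fell, with adjusted p of 0.00434, 5.05e-04 and 0.00742. PTGS2, the inducible cyclooxygenase, rose, counted at 1512, 1776 and 1650 in NT and 2877, 2841 and 2886 in KO (difference 0.78, SE 0.07, adjusted p = 2.81e-06). IL6 was at -0.22 (adjusted p = 0.293).

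**Figure D4:**
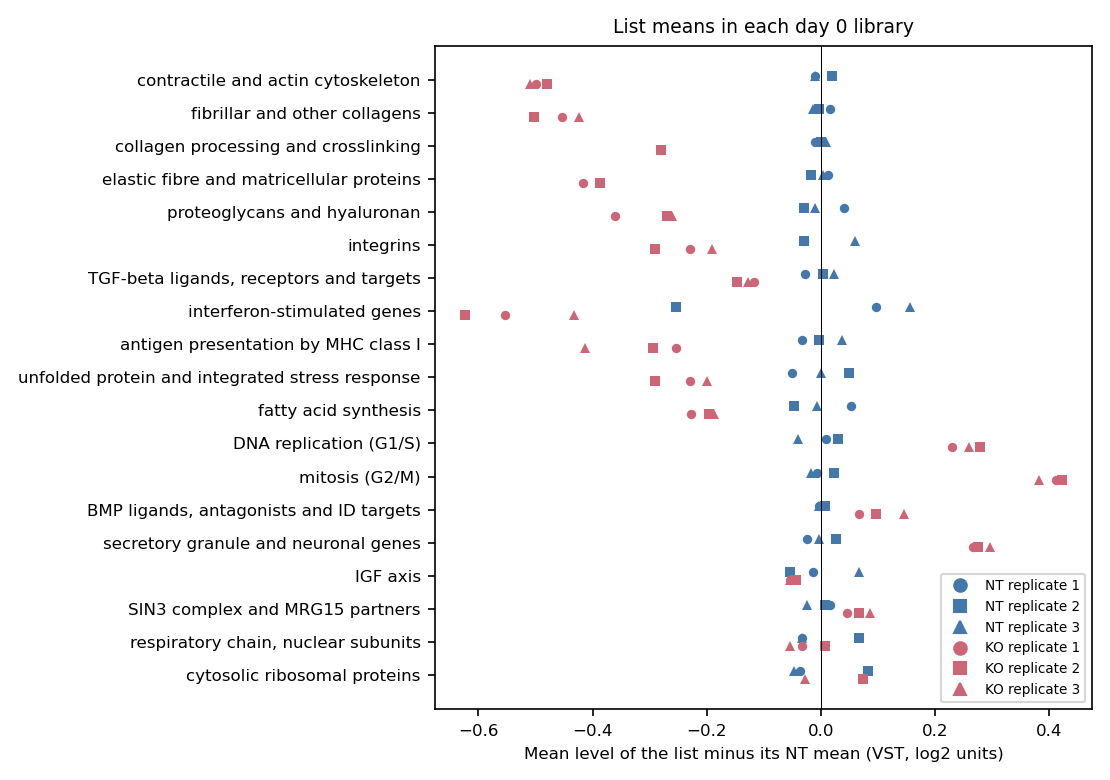
Mean level of each gene list in each day 0 library, minus the mean of the 3 NT libraries (horizontal axis, VST, log2 units), with NT in blue, KO in red and replicates 1 to 3 as circle, square and triangle. NT replicate 2 stands below its group for interferon-stimulated genes (8.21 against 8.56 and 8.62), and the contractile, collagen, replication and mitosis lists keep NT and KO libraries apart.

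The unfolded protein response and the integrated stress response were lower in 14 of 27 cases and higher in 0 (median -0.19). With 1 library left out, 10 to 15 were lower. The transcription factor ATF4 was called lower, but not without KO replicate 2 (adjusted p = 0.108) or NT replicate 2 (adjusted p = 0.0926). The chaperone HSPA5 (-0.15) was called lower, but not without KO replicate 1, KO replicate 2, NT replicate 2 or NT replicate 3. CHAC1, a glutathione-degrading enzyme switched on by ATF4, lies on chromosome 15 and was counted at 1317, 1401 and 1320 in NT and 878.4, 751.3 and 758.1 in KO (difference -0.72, SE 0.07, adjusted p = 3.64e-06). TRIB3, a pseudokinase target of ATF4, was counted at 2745, 3526 and 3420 in NT and 2264, 1745 and 2269 in KO (difference -0.61, SE 0.10, adjusted p = 5.44e-04). PSAT1, of serine synthesis, fell by 0.45 (adjusted p = 6.08e-06), the asparagine synthetase ASNS by 0.28 (0.00366) and SESN2, which restrains mTORC1, by 0.35 (0.00929). In the endoplasmic reticulum branch, the chaperone HYOU1 fell by 0.37 (4.47e-04) and the transcription factor XBP1 by 0.34 (0.00104). The stress factor DDIT3 (-0.14, adjusted p = 0.259), the chaperone HSP90B1 (-0.09, 0.224) and CALR (-0.05, 0.416) did not pass. The amino acid response element bound by ATF4 was searched as TGATGNAA on both strands. It lay in 4 of the 26 windows of this list (15.4%), against 2.78% of tested genes and 4.46% of all genes. The windows of 3 lower genes show it in capitals.
CHAC1 (chr15:40953244-40953287, plus strand): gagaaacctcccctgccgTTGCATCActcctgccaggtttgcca
HERPUD1 (chr16:56931948-56931991, plus strand): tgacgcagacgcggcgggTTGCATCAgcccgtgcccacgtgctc
ASNS (chr7:97872451-97872494, minus strand): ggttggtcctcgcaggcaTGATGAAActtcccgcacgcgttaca
The element starts at -209 in CHAC1, -176 in HERPUD1 and -68 in ASNS. All 4 genes with a match, these and ATF3, were lower (median -0.36), and of the 22 without one 10 were lower (median -0.15). HERPUD1, a degradation factor of the endoplasmic reticulum, fell by 0.33 (adjusted p = 0.0154) and lost its call without KO replicate 2 (adjusted p = 0.0691) or NT replicate 3 (adjusted p = 0.062). ATF3, a stress-induced factor, fell by 0.40 (adjusted p = 0.0306) and lost it without KO replicate 1 (adjusted p = 0.134), KO replicate 2 (adjusted p = 0.0652), NT replicate 1 (adjusted p = 0.0633) or NT replicate 2 (adjusted p = 0.0939).

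Lipid genes were lower where they were called. In fatty acid synthesis 8 of 14 were lower and 0 higher (median -0.18), among them the desaturases FADS1 (3787, 3541 and 3554 in NT and 2780, 3105 and 2528 in KO; difference -0.37, SE 0.08, adjusted p = 0.0035) and FADS2 (difference -0.32, SE 0.05, adjusted p = 0.00108), SCD5 (-0.41, adjusted p = 0.00845) and ME1, which supplies NADPH (-0.38, 0.0026). The central enzymes FASN (-0.11, adjusted p = 0.386) and SCD (0.02, 0.84) did not pass. In cholesterol synthesis and uptake 5 of 24 were lower and 0 higher. Among the lower were the synthesis enzymes IDI1 (-0.38, adjusted p = 0.00219), LSS (-0.32, 0.0044) and CYP51A1 (-0.28, 0.00174).

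Glycolysis and hypoxia genes did not share a direction, with 8 of 27 higher and 4 lower (1 lower after quantile normalisation). CA9 and NDRG1 led those that rose. CA9 was counted at 18.67, 19.01 and 21.63 in NT and 60.98, 80.6 and 60.63 in KO (difference 0.87, SE 0.13, adjusted p = 3.59e-04). NDRG1 was counted at 3658, 3926 and 4186 in NT and 6785, 6731 and 6542 in KO (difference 0.76, SE 0.07, adjusted p = 4.51e-06). CA12 on chromosome 15 (0.65, adjusted p = 1.09e-05) and the vasodilator peptide ADM (0.45, 2.02e-04) rose too. The glucose transporter SLC2A1 fell by 0.35 (adjusted p = 0.00776) and the chromosome 15 gene PKM by 0.19 (0.00364), while LDHA was at 0.04 (0.697) and GAPDH at -0.04 (0.669). Respiratory chain subunits were close to 0. Of 31 nuclear genes 2 were higher (0 without KO replicate 2 or NT replicate 1) and 2 lower, and of 13 mitochondrial genes 0 were called in either direction (3 higher after quantile normalisation). The largest difference, COX5A (-0.31, adjusted p = 0.00194), was of a chromosome 15 gene. Among antioxidant genes HMOX1, heme oxygenase, rose (1114, 1133 and 968.7 in NT and 1743, 1777 and 1492 in KO; difference 0.61, SE 0.08, adjusted p = 7.37e-05), and so did AKR1B1 (difference 0.61, SE 0.08, adjusted p = 1.71e-04), while NQO1 was at 0.01 (adjusted p = 0.961). Of 24 such genes 5 were higher and 3 lower, the latter 1 without KO replicate 1 or NT replicate 2 and 5 without NT replicate 1 or NT replicate 3. Cytosolic ribosomal protein genes had 1 higher and 2 lower of 33 (median 0.05), but 16 were higher after quantile normalisation, 3 without NT replicate 2 and 0 without KO replicate 1, KO replicate 2 or NT replicate 3. The 2 called lower, RPLP1 (-0.25) and RPL4 (-0.19, not called after quantile normalisation), are the list's 2 members on chromosome 15. Of 26 lysosome and autophagy genes 3 were higher (1 without KO replicate 2 and 8 after quantile normalisation) and 3 lower (1 without KO replicate 1, KO replicate 2, NT replicate 1 or NT replicate 2, and 0 after quantile normalisation). Of 14 tested clustered protocadherins 0 were higher and 2 lower (0 without KO replicate 1 or NT replicate 2).

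Of 23 tested BMP signalling genes 6 were higher and 1 lower (26.1% and 4.35%, against 7.70% and 11.1% of all genes). The median of the list was -0.01, so most of its members did not rise. The ligands BMP2 (63.2, 80.16 and 70.32 in NT and 116.7, 114.7 and 133.6 in KO; difference 0.52, SE 0.10, adjusted p = 0.00248) and BMP4 (320.8, 282.5 and 276.3 in NT and 422, 398.1 and 443.9 in KO; difference 0.45, SE 0.09, adjusted p = 0.00307) rose. Targets rose too: ID1, an inhibitor of differentiation factors, was counted at 301.2, 303 and 368.7 in NT and 617.2, 677.4 and 661 in KO, 2.01-fold higher (difference 0.90, SE 0.08, adjusted p = 2.43e-06), with ATOH8 (above), SMAD9 (0.41, adjusted p = 0.00659) and, from the TGF-β list, SMAD6. ID2 was at 0.14 (adjusted p = 0.203). The BMP receptors BMPR1A (-0.15, adjusted p = 0.283) and BMPR2 (-0.02, 0.933) and the secreted antagonist GREM1, on chromosome 15 (-0.11, 0.0552), did not pass. In the Wnt pathway 4 of 23 rose and 3 fell. The feedback target AXIN2 (60, 71.75 and 50.14 in NT and 102.6, 146.1 and 112.9 in KO; difference 0.64, SE 0.12, adjusted p = 0.00168), the transcription factor TCF7 (difference 0.68, SE 0.12, adjusted p = 0.00136) and the ubiquitin ligase ZNRF3 (0.43, adjusted p = 0.00806) rose. The receptor FZD7 (difference -0.47, SE 0.06, adjusted p = 4.18e-05) and the secreted protein DKK3 (difference -0.46, SE 0.04, adjusted p = 2.66e-06) fell.

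The IGF axis had equal numbers in both directions, 4 higher and 4 lower of 16, and its list mean overlapped between NT (11.73 to 11.85) and KO (11.73 to 11.74). IGF2, a growth factor from an imprinted locus, was counted at 41.72, 42.49 and 47.37 in NT and 115.2, 129.7 and 89.98 in KO (difference 0.82, SE 0.08, adjusted p = 1.18e-05), and the insulin receptor INSR at 256, 264.3 and 281.8 in NT and 619.1, 666.1 and 385.1 in KO (difference 0.89, SE 0.21, adjusted p = 0.00858). STC1, a secreted inhibitor of the PAPPA protease, rose (difference 0.88, SE 0.10, adjusted p = 1.92e-05), and PAPPA, which cleaves IGF binding proteins, fell (5406, 5407 and 6515 in NT and 2991, 2784 and 2911 in KO; difference -0.98, SE 0.08, adjusted p = 1.20e-06). Binding proteins that were called fell: IGFBP2 (4091, 4087 and 3741 in NT and 1972, 1938 and 1961 in KO; difference -1.0, SE 0.06, adjusted p = 1.20e-07), IGFBP3 (17613, 19031 and 19206 in NT and 10695, 10268 and 10968 in KO; difference -0.80, SE 0.04, adjusted p = 2.13e-08) and IGFBP7 (-0.72, adjusted p = 1.02e-07). IGFBP4 was at -0.03 (0.678). In the FGF and ERK list 4 of 22 rose and 4 fell. ETV1 and ETV4 (difference 0.56, SE 0.12, adjusted p = 0.0045) rose, whereas the feedback genes DUSP6 (0.02, adjusted p = 0.928), SPRY2 (0.13, 0.245) and SPRY4 (-0.09, 0.652) did not pass, and the ligand FGF5 fell (difference -0.45, SE 0.09, adjusted p = 0.00332). Of immediate early genes JUN rose by 0.22 (adjusted p = 0.00594), FOSL2 by 0.39 (2.45e-04), and EGR1 fell by 0.27 (0.00874). The list had 2 higher and 4 lower of 19, the latter 1 without KO replicate 1 or NT replicate 2 and 2 without KO replicate 2.

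Angiogenic factors had 7 higher and 4 lower of 20. While FLT1 fell, its ligands VEGFA (6163, 6203 and 6319 in NT and 8004, 7348 and 7813 in KO; difference 0.31, SE 0.05, adjusted p = 8.53e-04) and PGF (92.4, 93.8 and 83.83 in NT and 131.9, 128.3 and 140.4 in KO; difference 0.40, SE 0.09, adjusted p = 0.00646) rose, as did the angiopoietin-like protein ANGPTL2 (1327, 1137 and 1409 in NT and 2525, 2108 and 2354 in KO; difference 0.83, SE 0.17, adjusted p = 0.00365). The ephrin EFNB2 fell by 0.43 (adjusted p = 7.50e-04) and the semaphorin SEMA3D by 0.52 (0.00393). Of 9 tested endothelial and blood markers out of 16 listed 3 were higher, among them the receptors KDR (21.57, 23.74 and 36.31 in NT and 70.47, 63.88 and 49.33 in KO; difference 0.60, SE 0.10, adjusted p = 9.83e-04) and TIE1 (28.83, 22.63 and 27.96 in NT and 66.59, 95.76 and 63.41 in KO; difference 0.79, SE 0.17, adjusted p = 0.00567), all at low counts (0 were called higher among genes at least 2 above the floor). The summed level of that list was 2862 to 3146 in NT and 3008 to 3151 in KO. Within the list CDH5, the endothelial cadherin, was at most 9.50 in any library and PECAM1 was low (11.57, 35.44 and 10.38 in NT and 16.23, 9.163 and 16.29 in KO), whereas TEK was abundant in both groups at the levels given above. The part of such cells in the angiogenic values was not tested. Of the 10 tested cartilage, bone and fat markers 1 was higher and 1 lower.

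Secretory granule and neuronal genes included the largest rises, although the list's median was 0.01, with 9 of 20 higher and 3 lower. Beside RAB27B, VGF and STMN2, the adhesion molecule NCAM1 was counted at 333.3, 332.2 and 524.5 in NT and 664.2, 739.3 and 788.3 in KO (difference 0.82, SE 0.14, adjusted p = 7.50e-04), the growth cone protein GAP43 at 25.77, 43.15 and 37.76 in NT and 65.42, 63.22 and 69.81 in KO (difference 0.50, SE 0.10, adjusted p = 0.00329) and the neuronal enolase ENO2 at 1018, 1150 and 1066 in NT and 1596, 1538 and 1514 in KO (difference 0.50, SE 0.06, adjusted p = 6.50e-05). Tubulin TUBB3 rose by 0.36 (adjusted p = 6.91e-04) and PCSK1N, an inhibitor of prohormone cleavage, by 0.42 (0.0045). Other granule genes fell, SCG2 (882, 995.1 and 897.9 in NT and 681.7, 725 and 674.3 in KO; difference -0.39, SE 0.08, adjusted p = 0.00385) and the carboxypeptidase CPE (-0.27, adjusted p = 0.00424), as did the ubiquitin hydrolase UCHL1 (-0.23, 0.00193). RAB27A, the paralog of RAB27B on chromosome 15, was at -0.31 (adjusted p = 0.0529). Of 4 tested neural and neural crest markers out of 18 listed 0 were called. Their summed level was 2023 to 2227 in NT and 2059 to 2139 in KO, and SOX10, NEUROD1 and ELAVL4 were at or near 0.

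Epithelial markers were split. Of 6 tested out of 22 listed, KRT19 (414.4, 364.4 and 332.2 in NT and 736.2, 720 and 778.9 in KO; difference 0.92, SE 0.09, adjusted p = 4.22e-06) and the claudin CLDN4 (13.92, 11.29 and 11.91 in NT and 49.52, 45.8 and 51.44 in KO; difference 0.84, SE 0.09, adjusted p = 2.05e-05) were higher, and the desmosomal DSP (8183, 7959 and 8872 in NT and 5821, 5840 and 5979 in KO; difference -0.50, SE 0.05, adjusted p = 3.85e-06), KRT18 (difference -0.46, SE 0.05, adjusted p = 1.59e-05) and the tight junction protein OCLN (difference -0.72, SE 0.14, adjusted p = 0.0023) were lower. The summed level of the list was 19442 to 19756 in NT and 16125 to 16324 in KO. CDH1 and EPCAM, which OSKM switches on, were too low to be tested. In the pluripotency network 7 of 22 genes were tested and 1 was called: DPPA4, counted at 120.4, 136.1 and 122 in NT and 193.1, 175.9 and 151.4 in KO, rose (difference 0.34, SE 0.08, adjusted p = 0.00764) but was not called in the fit of the day 0 libraries alone. SALL4 lay between 32.8 and 40.5 in NT and between 46.3 and 86.8 in KO. It was called only when KO replicate 2 was left out (adjusted p = 0.0249). L1TD1 was at -0.11 (adjusted p = 0.636), and NANOG reached at most 9.65 and LIN28A at most 2.06 in any library. None of the 26 listed germline and cancer-testis genes, which some chromatin defects switch on, was high enough to be tested. Their summed level was 14.9 to 44.2 in NT and 15.9 to 30 in KO.

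Transcription factors of fibroblast identity were mostly not called. Of 32 tested 6 were higher and 6 lower, the latter 3 without KO replicate 1, NT replicate 1 or NT replicate 3. TBX3 was counted at 1301, 1301 and 1290 in NT and 2532, 2319 and 2588 in KO and rose (difference 0.90, SE 0.08, adjusted p = 1.78e-06), as did RUNX2, an osteoblast factor (357.3, 377.1 and 395.4 in NT and 497.2, 511.2 and 494.1 in KO; difference 0.37, SE 0.09, adjusted p = 0.00981), TBX15 (0.34, adjusted p = 4.60e-04) and OSR1 (above). NFIB fell (difference -0.38, SE 0.09, adjusted p = 0.011). The mesenchymal factors TWIST1 (-0.02, adjusted p = 0.902), PRRX1 (-0.04, 0.754), SNAI2 (-0.06, 0.47), ZEB1 (0.05, 0.763) and ZEB2 (-0.16, 0.133) did not pass. HOX genes, which record the position of a fibroblast in the body, had 2 higher and 1 lower (0 without KO replicate 1) of 22, among the higher HOXA10 (1015, 985 and 908.3 in NT and 1198, 1236 and 1189 in KO; difference 0.30, SE 0.07, adjusted p = 0.00678).

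In the NuA4/TIP60 complex MORF4L1 was the 1 gene called lower of 18 and 2 were higher (0 without any 1 of the KO replicates or NT replicate 1), the acetyltransferase KAT5 was at 0.03 (adjusted p = 0.835) and the bridging subunit MRGBP at -0.15 (0.198). Of 24 SIN3 subunits and MRG15 partners 2 were higher (6 after quantile normalisation) and 1 lower. SAP130, a SIN3 subunit and 1 of those higher (0.21, adjusted p = 0.0314), lost its call with each of the 6 libraries left out, and the 1 lower lost it with each but NT replicate 2. BRMS1 was counted at 798.6, 803.5 and 630.1 in NT and 1106, 1145 and 1044 in KO and rose (difference 0.54, SE 0.08, adjusted p = 2.98e-04), while SIN3A, on chromosome 15, was at 0.14 (0.303) and the demethylases KDM5A and KDM5B at -0.06 (0.737) and 0.09 (0.173). Among writers and erasers of the mark that MRG15 binds, the methyltransferase SETD2 was at -0.01 (adjusted p = 0.966) and NSD1 at -0.04 (0.746). The demethylase KDM2B rose (difference 0.38, SE 0.06, adjusted p = 7.82e-04) and KDM4A fell (difference -0.25, SE 0.06, adjusted p = 0.00666), and neither lost its call with any 1 library left out. Proteins that switch splicing, a process tied to MRG15, had 2 higher (0 without KO replicate 2) and 1 lower (0 without KO replicate 1, KO replicate 2, NT replicate 2 or NT replicate 3) of 21, and PTBP1, through which MRG15 was first tied to splice site choice, was at 0.02 (adjusted p = 0.804). Isoforms are not resolved in a table of genes. In Polycomb complexes 5 of 22 were higher (3 without KO replicate 1, KO replicate 2 or NT replicate 3) and 0 lower, among the higher EZH2, the methyltransferase (244.8, 291.1 and 262.7 in NT and 372.7, 408.7 and 387 in KO; difference 0.47, SE 0.07, adjusted p = 3.79e-04), and CBX2 (difference 0.68, SE 0.12, adjusted p = 0.00127). Of 20 known chromatin barriers to reprogramming MACROH2A1 (0.18, adjusted p = 0.0114) and H2AZ1 (0.24, 0.00816) were higher and 0 lower (5 higher after quantile normalisation).

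Genes of chromosome 15, which carries MORF4L1, were lower in KO cells along the whole chromosome. Over the 385 genes other than MORF4L1 with a mean at least 2 above the floor, the median difference was -0.164, a level 10.8% lower, 75.6% of differences were below 0, and 127 were called lower (33.0%, against 12.6% of all genes at that level) and 17 higher. The other 22 chromosomes had medians from -0.027 to 0.039, and 7.34 to 14.8% of their genes were called lower. Taken against the NT mean, the chromosome's median was -0.169, -0.142 and -0.192 in the 3 KO libraries and between -0.009 and 0 in the 3 NT libraries. The shift was present on both sides of MORF4L1: the median was -0.173 over 284 genes before it and -0.155 over 101 genes after it. In 9 bins of 10 Mb the medians ran from -0.053 in the bin farthest from MORF4L1 towards the centromere, with 13 genes, to -0.272 in the bin farthest on the other side, with 17 genes. Within 1 Mb of MORF4L1 the median of 10 genes was -0.187. Without the genes of this chromosome 2541 genes were called, 1080 higher and 1461 lower. The number of copies of the chromosome is not measured in these libraries, and its part in these values was not tested. The differences of TPM1, LOXL1, THBS1, FBN1, HAPLN3, ACAN, CEMIP, ITGA11, CHAC1 and B2M are all larger in size than the day 0 median of -0.164. Those of CA12 and SMAD6 run against it.

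**Figure D5:**
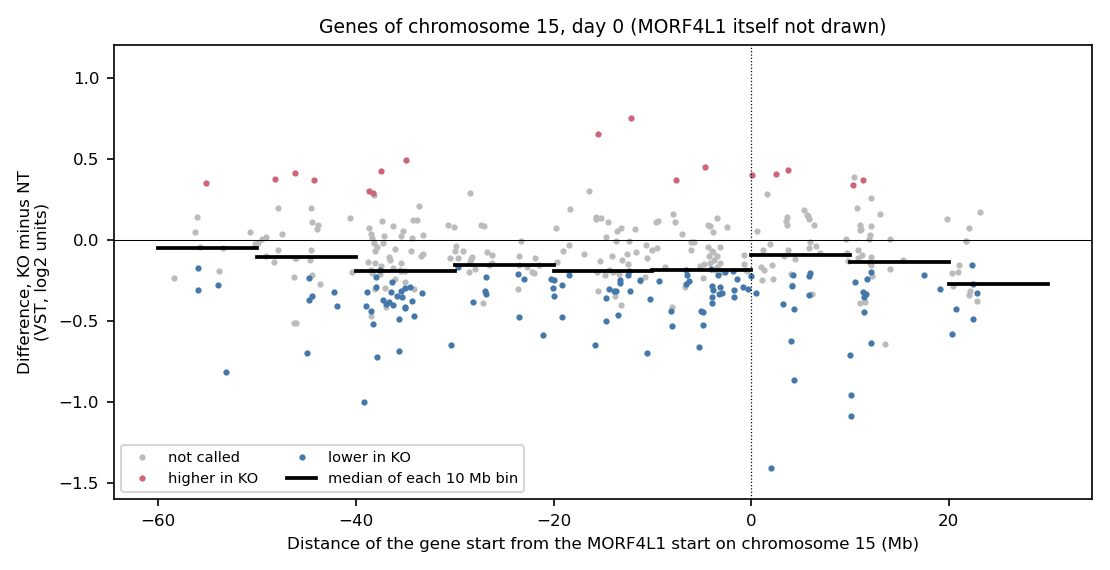
Difference between KO and NT on day 0 (vertical axis, VST, log2 units) of 385 chromosome 15 genes against the distance of each gene's start from that of MORF4L1 (horizontal axis, Mb), with black bars at the median of each 10 Mb bin. All 9 bars lie below 0, from -0.053 to -0.272.

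By count level, which is not corrected for gene length, genes called lower stood above the rest. Their median level was 10.24 VST units, against 9.11 for genes called higher and 8.99 for all genes tested. Among the 10944 tested genes with a RefSeq promoter window, the median GC content of the window was 66.6% for genes called lower and 64.7% both for those called higher and for all. The median span of the gene was 36.1 kb for the lower, 36.5 kb for the higher and 33.6 kb for all.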

How the data were processed

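Messenger RNA was sequenced from dH1f cells in 12 libraries of 4 groups, of which the 6 of day 0 are described. RNA was purified with a Zymo Research kit and made into TruSeq Stranded mRNA libraries, per the labels' protocols. STAR, Salmon and the DESeq2 package on GRCh38 are listed, without versions or roles, per the submitters' processing notes. The authors deposited variance-stabilised values on a log2 scale, 1 per gene identifier and library, and the lowest value, 4.85, was shared by all libraries. That transform follows from the values and the named package and is not stated for the table.

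Normalised counts were estimated by inverting the transform in its parametric form, which was assumed. Only 67.3 to 69.7% of low values (under 8) then lay within 0.1 of whole numbers, too few for a count model. A gene at the filter has an estimated 14.4 counts. Differences were tested two-sided with limma 3.58.1 (R 4.3.3, prior variance following the mean) in 1 fit of all 12 libraries, with Benjamini-Hochberg adjustment over 14402 genes and a threshold of 0.05. The fit was tested on simulated data.

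Genes, lists and tests were chosen with earlier results of these data known. The 52 lists hold 1140 genes, of which 995 were tested, and 3 listed symbols matched none. Some list members and lists are not reported here. The naming rule took MORF4L1, MORF4L2 and the OSKM factors, the 12 highest and 12 lowest called genes whose groups do not overlap, and up to 4 called members per list with the largest differences. Further list members are named to show the list's range and were chosen after their values were seen. Positions come from GENCODE release 29 (GRCh38) and promoter windows from RefSeq (GRCh38.p14), where 10944 tested genes had one and any window of a gene counted. Alternatives were other filters, normalisations, pseudocounts, variance models and sample sets, the replicate block and each library left out. Fits on log2 of the estimated counts were added after seeing the data.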

Additional observations from a re-analysis of the deposited data

Results flagged for a closer look

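Of the 24 genes with the highest and lowest differences on day 0, 18 had a KO effect on day 6 that differed from that on day 0 by the interaction term of the same limma fit (adjusted p under 0.05). Values are the day 6 effect minus the day 0 effect in VST units.

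For each of the 12 genes with the highest differences the day 6 effect was smaller or of opposite sign. The value was -2.07 for RAB27B, -1.47 for VGF, -1.08 for STMN2, -1.41 for MMP3, -1.29 for LRATD1 and -0.95 for CAMK1G. It was -1.63 for ATOH8, -1.08 for ETV1, -1.38 for NOS1, -1.67 for OSR1, -1.12 for WNT7B and -0.84 for SLC7A8. These genes, and the lowest genes given next, were named for their size on day 0, a value that enters each of these differences.

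Among the lowest genes the effect was larger on day 6 for MORF4L1 (-0.21), ACTA2 (-0.78), POSTN (-0.38) and HAPLN1 (-1.15), and smaller for FOXS1 (0.41) and B3GALT2 (0.48).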

How the results depend on the processing

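The 2709 calls became 2035 without a filter, 2225 with the day 0 libraries alone (2113 of them shared), 2310 with the replicate block (2216 shared) and 2470 to 2696 with other variance models, filters, pseudocounts or a common median. With 1 library left out they ran from 1957 to 2282 (788 to 933 higher, 1169 to 1349 lower), and 1465 kept their call in all 6 such fits. Quantile normalisation gave 1336 higher and 1334 lower. With the replicate block 4 HOX genes were higher in place of 2. Residuals of NT and KO libraries that share a replicate number correlated between -0.036 and 0.008. Whether such libraries also shared a culture or preparation is not given by the labels and is not settled by these values. No named gene changed direction in any of the 19 alternatives in which it was tested, and of 178 named genes that were called 148 kept the call with every library left out. The chromosome 15 median moved to -0.194 on log2 of estimated counts with a pseudocount of 1 and to -0.134 with genes at least 1 above the floor, and with 1 library left out ran from -0.173 to -0.149. That the second takes in lower genes follows from its filter, and the cause of the first was not tested. Genes near the floor, with few estimated counts, are limited by depth.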
